A study of Mus musculus with 24 samples.

Results

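A set of 10 genes of the brain endothelium, the cell layer that lines blood vessels, was followed through preparations of microglia and astrocytes from mice injected with saline or with lipopolysaccharide (LPS, a component of bacterial outer membranes). They were chosen by name, with earlier results of these data known. Of these, 5 genes, Cldn5, Pecam1, Cdh5, Flt1 and Kdr, mark endothelial identity, and the other 5, Vcam1, Icam1, Sele, Selp and Ackr1, encode adhesion molecules or a chemokine-binding receptor of activated vessels. All 10 were found among the 53700 genes of the microglia tables and the 55487 of the astrocyte tables. RNA sequencing had been done on 24 libraries in 8 groups of 3. Each cell type came from 4 groups: saline control, saline knockout, LPS control and LPS knockout. The knockout mice were adult Serpine2-/- animals, which lack the secreted serine protease inhibitor Serpin E2. The controls were littermates that kept at least 1 working Serpine2 allele, so these groups may mix genotypes. All mice were perfused with phosphate buffered saline before dissection. Microglia were taken from whole brain and astrocytes from cerebral cortex, and both were collected from antibody-coated dishes, so other cells can be carried along. Their exact age, the dose of LPS and the time after injection were not given in the sources used here.

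The libraries are described first, since several results rest on low counts. The microglia libraries held 4506142 to 13621776 gene counts each, and the astrocyte libraries 10944765 to 25135252. The top 10 genes of an astrocyte library took between 47.7% and 66.4% of its gene counts, and in microglia libraries reads outside annotated genes took between 56.2% and 72.7% of the reads listed. Levels are given as CPM, counts scaled to a common library size with TMM factors within each cell type. A total of 3 counts, the limit that a count of 0 allows, was worth 0.11 to 0.247 CPM in an astrocyte library and 0.207 to 0.634 CPM in a microglia library, and these limits cover counting error only. The astrocyte LPS libraries numbered 2, control and knockout, stood apart from the other 10 astrocyte libraries, with 15.9% and 16.3% of listed reads outside annotated genes (against 18.9% to 21.1%) and 65.9% and 66.4% of gene counts in the top 10 genes (against 47.7% to 63.2%). The astrocyte LPS libraries numbered 3 were the only LPS libraries of that cell type labelled female. Serpine2 itself was lower in the knockouts, at 16.4 to 22.2 CPM against 78.2 to 169 CPM in controls of the astrocyte preparations (log2 difference −2.62, edgeR adjusted p = 9.08e-07) and at 16.9 to 20.6 against 46.4 to 96.2 CPM in microglia preparations (−1.86, adjusted p = 0.00221). Sex-linked transcripts went against the labelled sex in 1 library, the microglia LPS control 1, without which the microglia result on Icam1 below kept its call and the differences between cell types in Icam1 and Flt1 lost theirs. The labels do not say which libraries share a litter or a day, so p-values measure the spread between these libraries.

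Brain endothelial cells are joined by tight junctions, to which the claudin Cldn5 belongs, and by adherens junctions built on VE-cadherin, the product of Cdh5. Pecam1 sits at the same cell borders, and Flt1 and Kdr are receptors for vascular endothelial growth factor (VEGF). When inflammatory signals reach the vessel, endothelial cells place E-selectin (Sele) and P-selectin (Selp) on their surface, which slow passing leukocytes, and the integrin ligands ICAM-1 and VCAM-1, which hold them. Ackr1 binds chemokines on the endothelium of venules without signalling through G proteins. Neither microglia nor astrocytes depend on these junctions, but ICAM-1 is made by glia and leukocytes as well, and Pecam1 by platelets and leukocytes.

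Positions are given from the GENCODE M21 annotation of GRCm38. The submitters' processing notes name both GRCm38 and GRCm39, without saying which table used which. Sele (chr1:164048234-164057677) and Selp (chr1:164115264-164150026) lie near each other on the plus strand. The VEGF receptors Flt1 (chr5:147561604-147726011) and Kdr (chr5:75932827-75978458) are both on the minus strand of chromosome 5. Cldn5 (chr16:18776847-18778262), Cdh5 (chr8:104101625-104144511) and Icam1 (chr9:21015985-21028817) are on plus strands, and Pecam1 (chr11:106654217-106750628) and Vcam1 (chr3:116109949-116129688) on minus strands. Ackr1 (chr1:173331886-173333750, minus strand) overlaps the same-strand gene Cadm3 (chr1:173333258-173367695), a neuronal adhesion gene, and 361 of its 1405 exon bases also belong to Cadm3. Vcam1, Icam1 and Selp share exon bases with antisense genes (61, 511 and 438 bases for the largest overlap of each). Whether the counting used strand was not stated, so reads of overlapping pairs cannot be told apart there.

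RefSeq (GRCm38.p6) gave promoter windows for 7 of the 10 genes, Cldn5, Flt1, Kdr, Icam1, Sele, Selp and Ackr1. The windows of Icam1 and Sele, inducible adhesion genes, and of Flt1 and Cldn5, identity genes whose levels moved with LPS in astrocyte preparations, are printed as examples. Those of Kdr, Selp and Ackr1 are not printed, although Ackr1 had the largest averaged astrocyte difference below. Each line holds the 250 bases before the gene's RefSeq start, 5′ to 3′ on the gene's strand. Capitals mark a match to a kappa-B type sequence, either the 10-base NF-kB consensus or the shorter palindrome GGANNNTCC, searched on both strands.
Icam1: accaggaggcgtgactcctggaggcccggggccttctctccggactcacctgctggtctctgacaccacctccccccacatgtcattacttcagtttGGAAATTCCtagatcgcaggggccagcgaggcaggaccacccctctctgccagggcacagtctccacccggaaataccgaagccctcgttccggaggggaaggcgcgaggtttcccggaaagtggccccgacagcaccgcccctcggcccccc
Sele: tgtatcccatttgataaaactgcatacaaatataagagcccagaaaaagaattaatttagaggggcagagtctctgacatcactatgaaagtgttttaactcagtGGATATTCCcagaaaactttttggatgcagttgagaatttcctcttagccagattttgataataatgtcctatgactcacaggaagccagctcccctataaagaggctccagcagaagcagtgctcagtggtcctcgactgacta
Flt1: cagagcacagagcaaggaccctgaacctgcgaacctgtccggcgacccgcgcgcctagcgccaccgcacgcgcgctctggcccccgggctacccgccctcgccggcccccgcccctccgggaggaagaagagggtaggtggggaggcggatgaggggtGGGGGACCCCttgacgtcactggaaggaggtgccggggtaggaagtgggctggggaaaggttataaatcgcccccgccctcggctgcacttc
Cldn5: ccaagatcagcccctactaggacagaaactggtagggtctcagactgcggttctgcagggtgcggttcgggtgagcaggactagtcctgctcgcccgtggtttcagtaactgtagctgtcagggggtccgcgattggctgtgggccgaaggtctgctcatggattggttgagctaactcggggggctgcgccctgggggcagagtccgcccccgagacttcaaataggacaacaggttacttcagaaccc
The Icam1 window (chr9:21015690-21015939) held GGAAATTCC starting 153 bases before the start, and the Sele window (chr1:164047984-164048233) held GGATATTCC at 145 bases. The NF-kB consensus matched in the Flt1 window (chr5:147726012-147726261) at 92 bases and in that of Kdr at 74 bases. The windows of Cldn5 (chr16:18776597-18776846), Selp and Ackr1 held neither. Of 32851 promoter windows of the same length, 3.9% held the consensus and 7.27% held GGANNNTCC. The shorter motif was added after the sequences had been seen. These are matches of letters, not measured binding.

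In astrocyte preparations, genes of both kinds were higher after LPS. In bulk RNA, more endothelial cells in a preparation and more of these RNAs per cell cannot be told apart. Averaged over the genotypes, 6 of the 8 genes with enough counts to test rose in edgeR's quasi-likelihood test, taken as called where the p adjusted by Benjamini and Hochberg's method across every tested gene was under 0.05: Cldn5, Pecam1, Cdh5, Flt1, Icam1 and Ackr1. Of all 18188 genes tested, 6.9% were called, 4.98% higher and 1.92% lower. The median log2 fold change was 3.09 over the 8 genes and 0.01 over all genes. Kdr and Vcam1 were not called, and Sele and Selp had too few counts in either group to enter the test. A gene low after saline could enter through its LPS libraries alone, so the count and the median describe the genes tested and not all 10. Without both LPS libraries numbered 2, an alternative added after seeing the data, 3 were called (Cldn5, Flt1 and Ackr1) and 635 genes in all. Pecam1 (log2 2.22, adjusted p = 0.0891), Cdh5 (2.34, 0.0678) and Icam1 (4.29, 0.0629) were then not called.

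**Figure D1:**
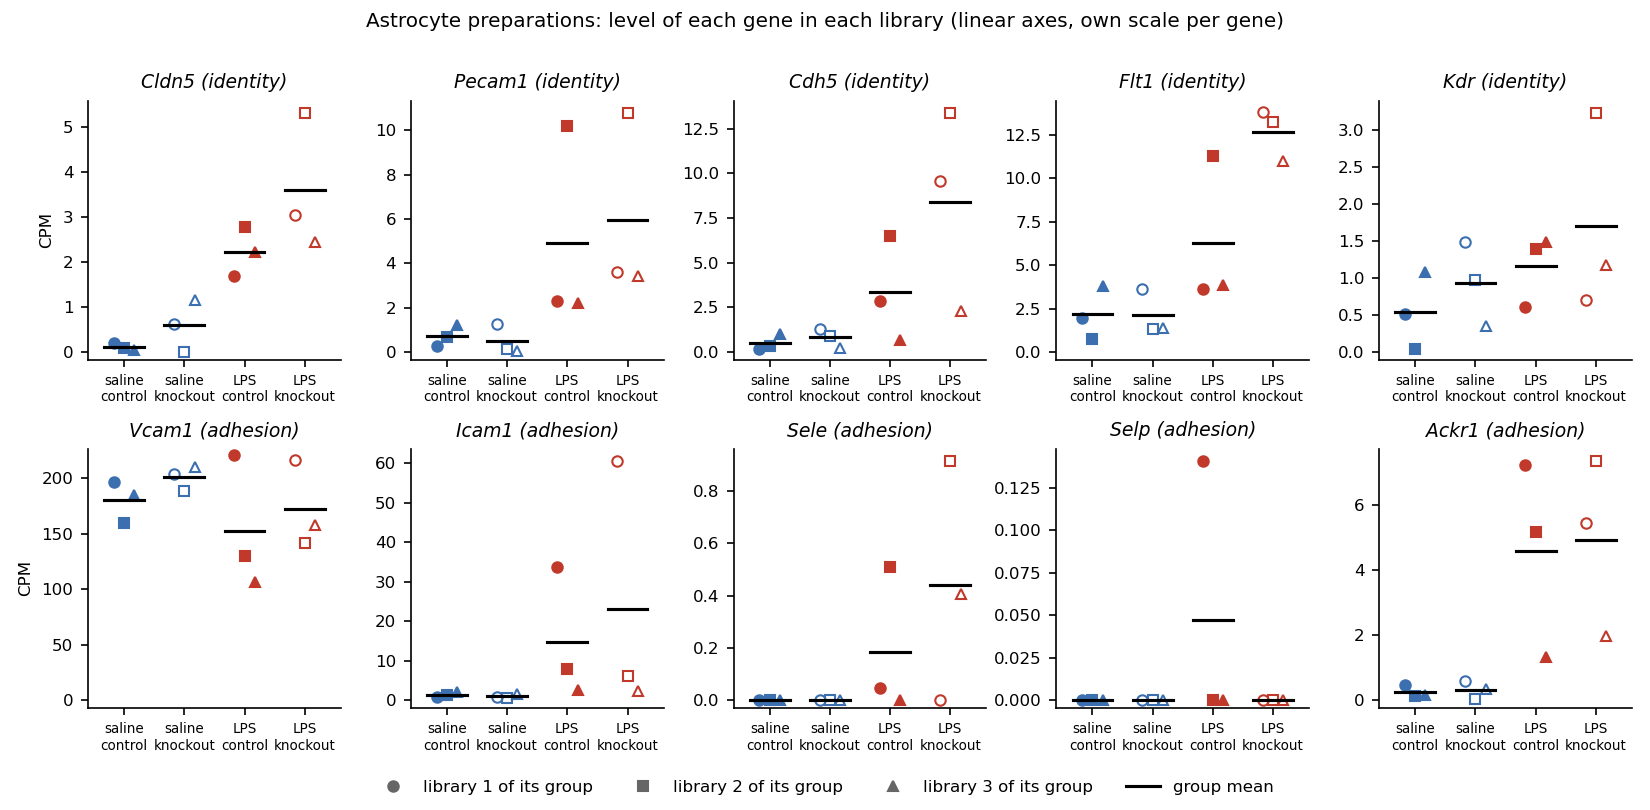
Level of each gene in each of the 12 astrocyte libraries, in CPM on linear axes with a scale of its own for each gene. Symbols stand for the library number within a group, open symbols for knockouts, blue for saline and red for LPS, and black lines for group means of 3 libraries. Icam1 reached 60.7 and 33.7 CPM in the first LPS libraries, while Pecam1 reached 10.2 and 10.8 CPM in the second.

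Among the junction genes, Cldn5 was nearly absent after saline. The saline controls had 0.204, 0.0911 and 0.054 CPM and the saline knockouts 0.632, 0 and 1.15 CPM. The LPS controls had 1.7, 2.78 and 2.22 CPM and the LPS knockouts 3.05, 5.33 and 2.45 CPM. Every LPS library was above every saline library. The averaged difference was 10.6-fold (log2 3.40, SE 0.67, edgeR adjusted p = 0.00537), and it ranged from 3.10 to 3.85 when single libraries were left out.

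Cdh5, which encodes the cadherin of endothelial adherens junctions, rose as well but with overlap. Its levels were 0.153, 0.319 and 1.03 CPM in saline controls and 1.32, 0.927 and 0.215 CPM in saline knockouts. After LPS they were 2.87, 6.5 and 0.659 CPM in controls and 9.56, 13.4 and 2.29 CPM in knockouts. The LPS control 3 library, at 0.659 CPM, lay inside the saline range, and the other 5 LPS libraries lay above it. The averaged log2 fold change was 3.03 (SE 0.62, adjusted p = 0.00646).

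Pecam1 is an adhesion molecule of endothelial borders that platelets and leukocytes also carry. The saline controls had 0.255, 0.683 and 1.24 CPM and the saline knockouts 1.26, 0.146 and 0.0717 CPM. The LPS controls had 2.31, 10.2 and 2.22 CPM and the LPS knockouts 3.6, 10.8 and 3.42 CPM. The lowest LPS library was above the highest saline library, and the second library of each genotype stood far above the other 4. These are the LPS libraries that stood apart in unassigned reads and top genes, and the part of that in their Pecam1, Cdh5 and Sele levels was not tested. The log2 fold change was 3.14 (SE 0.64, adjusted p = 0.00647). It was 4.18 without saline knockout 1, and it was called whichever library was left out, with a lowest value of 2.59.

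The VEGF receptors differed from each other. Flt1, which binds VEGF and limits its supply to Kdr, had 1.99, 0.774 and 3.78 CPM in saline controls and 3.64, 1.32 and 1.36 CPM in saline knockouts. It had 3.63, 11.3 and 3.87 CPM in LPS controls and 13.8, 13.2 and 11 CPM in LPS knockouts. The 3 LPS knockout libraries and LPS control 2 stood well above saline, LPS control 3 only just, and LPS control 1 lay below the highest saline library. Averaged, Flt1 rose by 2.05 on the log2 scale (SE 0.41, adjusted p = 0.00601). Kdr, the main signalling receptor of VEGF in endothelium, ranged from 0.0455 to 1.48 CPM after saline and from 0.612 to 3.23 CPM after LPS. Its ranges overlapped broadly and its log2 difference of 0.96 was not called (SE 0.66, 95% interval −0.43 to 2.35, adjusted p = 0.46).

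Ackr1 showed the largest averaged difference of the 8 genes. The saline controls had 0.459, 0.137 and 0.162 CPM and the saline knockouts 0.58, 0.0488 and 0.358 CPM. These were 9, 3 and 3 counts in controls and 11, 1 and 5 in knockouts, so the saline level lay near the limit of 3 counts. The LPS controls had 7.25, 5.19 and 1.32 CPM and the LPS knockouts 5.44, 7.37 and 1.99 CPM. The LPS libraries numbered 3 were the lowest of their groups, and both were still above every saline library. The log2 fold change was 4.03 (SE 0.60, adjusted p = 0.000643), a 16.3-fold difference. Cadm3, whose exons overlap Ackr1, rose too, from 9.03 to 14.4 CPM after saline to 20.4 to 70.5 CPM after LPS (log2 2.06, adjusted p = 0.000164). Whether part of the Ackr1 counts came from Cadm3 transcripts was not tested.

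Icam1, the ligand of leukocyte beta-2 integrins, had the largest standard error of the 8 genes. Saline controls had 0.917, 1.37 and 2.05 CPM and saline knockouts 0.949, 0.586 and 1.65 CPM. LPS controls had 33.7, 8.04 and 2.55 CPM and LPS knockouts 60.7, 6.19 and 2.4 CPM. In both genotypes LPS library 1 was the highest and LPS library 3 the lowest, yet even the lowest were above the highest saline library. The log2 fold change was 3.92 (SE 0.93, 15.1-fold, adjusted p = 0.0345). This call was lost without LPS control 2 and without any 1 of the 6 saline libraries (saline control 1, 2 or 3, or saline knockout 1, 2 or 3), with adjusted p between 0.0649 and 0.11. The value itself was 2.70 without LPS knockout 1 and 3.17 without LPS control 1, with the call kept in both.

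Vcam1, the ligand of the integrin made by Itga4 and Itgb1, was abundant under both injections. Per kilobase of exon, saline controls had 22.3, 18.1 and 20.8 CPM and saline knockouts 23, 21.3 and 23.7 CPM, and LPS controls had 24.9, 14.7 and 12.1 CPM and LPS knockouts 24.5, 16 and 17.9 CPM. The first LPS library of each genotype was above all saline libraries and the other 4 LPS libraries were below all of them, and the mean over all exons was 191 ± 17.6 CPM after saline and 163 ± 46.9 CPM after LPS (SD, n = 6 each). The log2 difference of −0.23 was not called (SE 0.18, 95% interval −0.61 to 0.15, adjusted p = 0.531). Per kilobase of exon, Vcam1 stood at 21.5 CPM after saline, against 0.287 for Icam1, 0.25 for Cldn5 and 0.0821 for Kdr. After LPS these levels were 18.3 for Vcam1, 4.34 for Icam1, 2.06 for Cldn5 and 0.158 for Kdr. In the saline libraries, where Vcam1 averaged 191 CPM, 10 endothelial markers together summed to 4.13 to 11.1 CPM. Which cells carried the Vcam1 RNA was not tested.

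The selectins were at the limit of detection. Sele had 0 counts in all 6 saline libraries, and in LPS libraries it had 1, 7 and 0 counts in controls and 0, 17 and 8 in knockouts. The 33 counts over the LPS libraries put Sele at least 11.1-fold higher than the limit of 3 counts over the saline group. Of these counts 17 came from LPS knockout 2, without which the other 16 put it at least 6.45-fold higher. Without the filter on low counts edgeR called this difference (adjusted p = 0.0168), and not when LPS knockout 2 was left out as well (adjusted p = 0.107). Selp had 3 counts in LPS control 1 and 0 in the other 11 libraries, so no difference in it was detectable at this depth.

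Within one genotype at a time, with 3 libraries against 3, fewer genes passed the test. In controls Ackr1 alone was called (log2 4.16, SE 0.85, adjusted p = 0.0263) where 0.929% of all genes were called, 0.775% higher and 0.154% lower. In knockouts Ackr1 (3.90, adjusted p = 0.0277) and Flt1 (2.58, SE 0.59, adjusted p = 0.0393) were called, beside 1.56% of all genes, 1.35% higher and 0.209% lower. The others missed the threshold: Cldn5 differed by 4.18 in controls (adjusted p = 0.0616) and 2.63 in knockouts (0.167), Pecam1 by 2.74 (0.173) and 3.54 (0.0664), Cdh5 by 2.74 (0.17) and 3.32 (0.0664), and Icam1 by 3.36 (0.316) and 4.47 (0.16). The Ackr1 call in controls was lost without LPS control 1 or 2 or any 1 of the saline controls, and its value was 4.89 without saline control 1. In knockouts it was lost without LPS knockout 2 or any 1 of the saline knockouts, with 4.67 without saline knockout 1. The Flt1 call was lost without LPS knockout 1 or 2, saline control 1 or any 1 of the saline knockouts, and its value was 3.23 without saline knockout 1. Icam1 fell to 1.87 in controls without LPS control 1 and to 2.04 in knockouts without LPS knockout 1. Pecam1 in knockouts was 5.63 and called without saline knockout 1 (adjusted p = 0.047). Without both LPS libraries numbered 2, 0 members were called in controls and 0 in knockouts.

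The LPS libraries numbered 3 had the lowest Icam1, Ackr1 and Cdh5 of their groups. Leaving out LPS libraries with low levels favours a difference and removes the female LPS libraries, so the counts without both (6 averaged, 4 in controls and 5 in knockouts) are given as a description only. Of the 8 tested genes, 4 had LPS and saline ranges that did not overlap at all, namely Cldn5, Pecam1, Icam1 and Ackr1. Over all 18188 genes, 2.67% had LPS ranges entirely above saline and 1.45% entirely below.

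In microglia preparations Icam1 was the only member called after LPS, as higher, 1 of the 7 genes tested. Of all 22230 genes 2.7% were called, 2.19% higher and 0.513% lower. Cdh5 had a larger estimate that was not called (log2 1.10, against 0.86 for Icam1). Cldn5, Sele and Selp did not have enough counts to be tested. The median log2 fold change of the 7 was 0.22 and that of all genes −0.03. No member was called within controls (0.576% of genes called, 0.526% higher and 0.0495% lower) or within knockouts (1.14% called, 1.01% higher and 0.13% lower), and 2 and 1 of them had an unadjusted p under 0.05. Of all 22230 genes, 1619 in controls and 1691 in knockouts had an unadjusted p under 0.05. DESeq2 called 0 members in controls and 1 in knockouts, Icam1. No member had LPS and saline ranges without overlap, where 1.92% of genes had LPS entirely above and 0.477% entirely below.

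**Figure D2:**
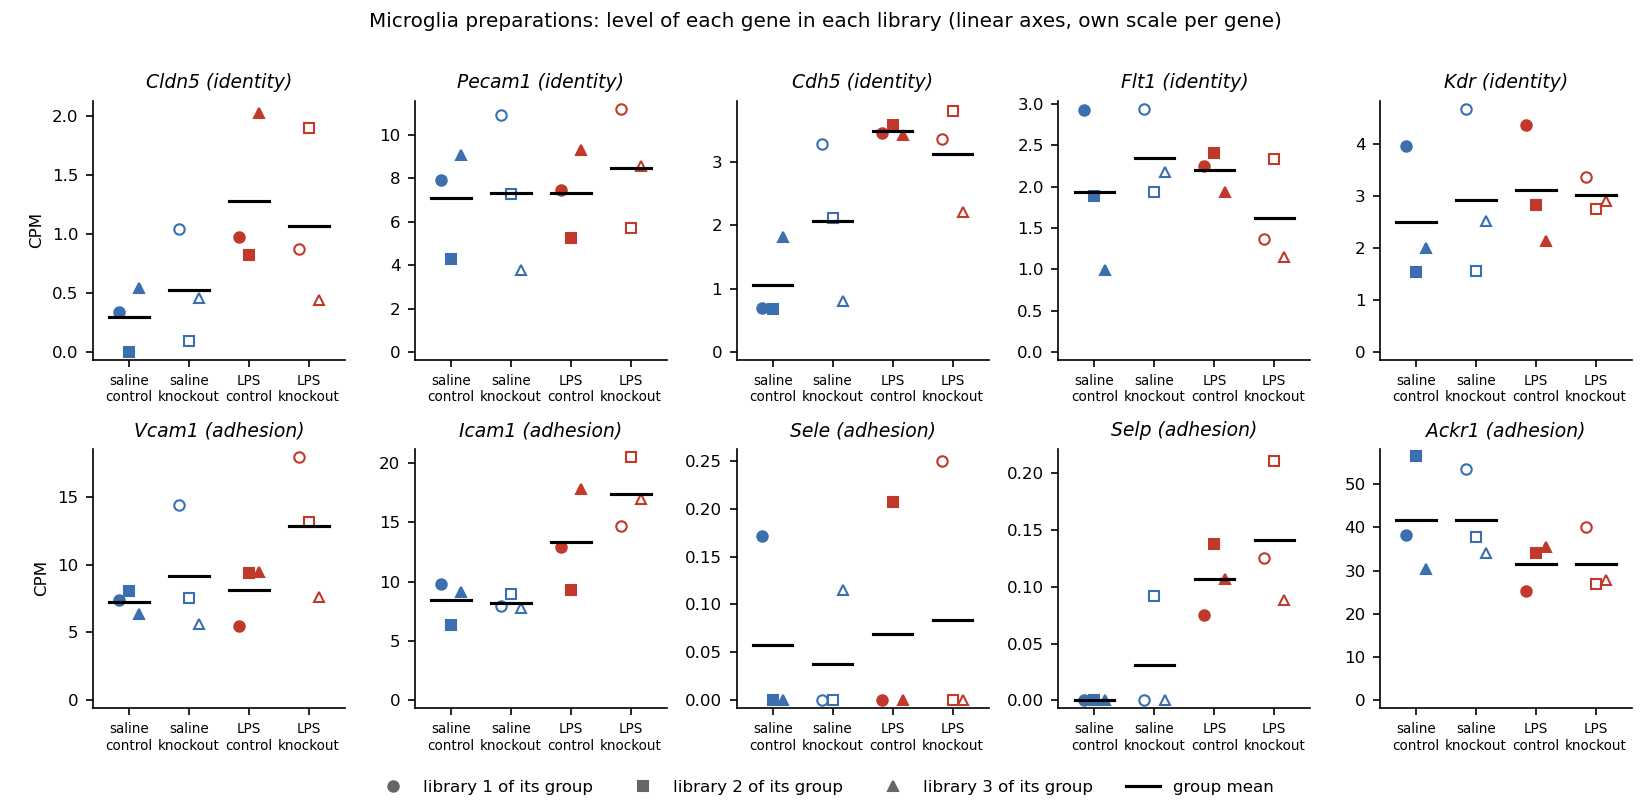
Level of each gene in each of the 12 microglia libraries, in CPM on linear axes with a scale of its own for each gene. Symbols and colours are as for the astrocyte libraries, and black lines are means of 3 libraries. Icam1 spans 6.31 to 9.82 CPM after saline and 9.3 to 20.5 CPM after LPS, while Pecam1, Kdr and Flt1 overlap under both injections.

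Icam1 was at 9.82, 6.31 and 9.14 CPM in saline controls and 7.96, 8.93 and 7.79 CPM in saline knockouts. LPS controls had 12.9, 9.3 and 17.8 CPM and LPS knockouts 14.7, 20.5 and 17 CPM. Only LPS control 2 fell inside the saline range. The averaged difference was 1.82-fold (log2 0.86, SE 0.20, edgeR adjusted p = 0.0247). It was lost without LPS control 3, LPS knockout 2 or saline knockout 3 (adjusted p = 0.0707, 0.0705 and 0.0569), and with sex as a covariate from labels or transcripts (0.0827 and 0.0562).

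Among the identity genes of the microglia preparations, Cdh5 came closest to the threshold. It had 0.689, 0.682 and 1.81 CPM in saline controls, 3.29, 2.12 and 0.802 CPM in saline knockouts, 3.46, 3.58 and 3.43 CPM in LPS controls and 3.37, 3.81 and 2.21 CPM in LPS knockouts. The LPS libraries were close together, and saline knockouts 1 and 2 reached or neared their range. The log2 difference of 1.10 was not called (SE 0.34, adjusted p = 0.131), but it was without saline control 3 (1.46, adjusted p = 0.0373) and without saline knockout 1 (1.34, 0.0479). DESeq2 also called it (1.13, adjusted p = 0.0402).

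The other identity genes overlapped between injections. Pecam1 ranged from 3.78 to 10.9 CPM after saline and from 5.24 to 11.2 CPM after LPS (log2 0.14, SE 0.28), Kdr from 1.54 to 4.67 and from 2.14 to 4.36 CPM (0.22, SE 0.32), and Flt1 from 0.995 to 2.94 and from 1.15 to 2.41 CPM (−0.17, SE 0.30). None of the 3 was called, and their 95% intervals ran from −0.46 to 0.74 for Pecam1, −0.45 to 0.90 for Kdr and −0.82 to 0.48 for Flt1. Cldn5 had 0 to 6 counts per saline library and 5 to 19 per LPS library, a mean of 0.413 ± 0.371 against 1.18 ± 0.642 CPM (SD, n = 6 each). With no filter on low counts the adjusted p of Cldn5 was 0.118.

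Vcam1 in microglia preparations ranged from 5.61 to 14.4 CPM after saline and from 5.49 to 17.9 CPM after LPS, far under its level in astrocyte preparations. Its difference was not called (log2 0.33, SE 0.27, adjusted p = 0.661). Astrocyte markers summed to 483 to 630 CPM after saline and 491 to 608 CPM after LPS in these microglia preparations. Which cells carried the Vcam1 RNA there was not tested. Ackr1 was at 38.2, 56.6 and 30.3 CPM in saline controls, 53.5, 37.7 and 34 CPM in saline knockouts, 25.2, 34 and 35.5 CPM in LPS controls and 40.2, 26.9 and 27.8 CPM in LPS knockouts. These overlapping levels gave a log2 difference of −0.40 that was not called (SE 0.19, adjusted p = 0.407). Cadm3 stood at 626 to 1160 CPM over the same 12 libraries, and the 8 neuronal markers summed to 1870 to 2860 CPM. The Cadm3 mean was 916 CPM after saline and 763 CPM after LPS, beside 41.7 and 31.6 CPM for Ackr1. Whether part of the Ackr1 counts came from Cadm3 transcripts was not tested here either. Sele had at most 3 counts and Selp at most 2 in any microglia library.

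Ackr1, the highest of the 10 genes per kilobase in microglia preparations after saline (29.7 CPM per kilobase, against 1.91 for Icam1 and 1.16 for Pecam1), was higher in each microglia group than in any astrocyte group. Vcam1 had the reverse order, with all 4 astrocyte groups (means 153 to 201 CPM) above all 4 microglia groups (7.25 to 12.9 CPM). Both orders held when the 24 libraries were scaled together, with the part of Cadm3 reads in the Ackr1 counts not tested. The order of Pecam1 did not: scaled within a cell type its microglia groups led (means 7.08 to 8.5 CPM, against 4.9 and 5.94 in LPS astrocytes), and scaled over all 24 libraries the LPS astrocyte groups led (10.2 and 12.6 CPM, against 4.18 to 5.21). Scaled within a cell type, Icam1 was lowest in both saline astrocyte groups, which overlapped with no other group, while its other 6 groups overlapped with their neighbours. Flt1 had its highest mean in LPS astrocyte knockouts (12.6 CPM), followed by LPS astrocyte controls (6.27 CPM), whose lowest library lay under the highest of both saline astrocyte groups. For Cldn5, Cdh5 and Kdr every group overlapped with its neighbour in the order.

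**Figure D3:**
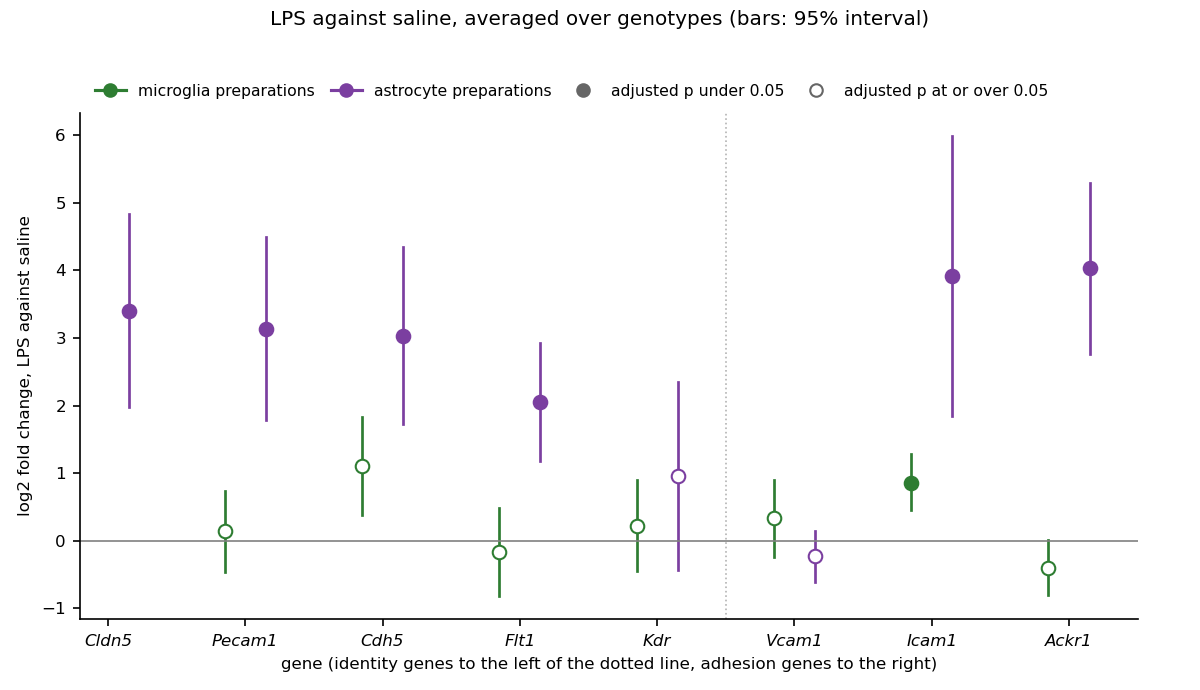
Log2 fold change of LPS against saline, averaged over genotypes, for the 8 genes tested in 1 or both cell types. Points are edgeR estimates, bars their 95% intervals, filled points adjusted p under 0.05, and Cldn5 has no microglia value. Astrocyte values (purple) reach 4.03 for Ackr1 and 3.92 for Icam1, and the microglia values (green) lie between −0.40 and 1.10.

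The LPS responses of the 2 cell types were compared directly, as the microglia response minus the astrocyte response in 1 fit of all 24 libraries. The difference was called for 4 of 8 genes, all smaller in microglia, where 2.6% of 24607 genes were called, 1.78% lower and 0.817% higher. Ackr1 differed by −4.42 on the log2 scale (SE 0.57, adjusted p = 7.79e-05), Icam1 by −3.03 (SE 0.81, 0.0417), Pecam1 by −2.97 (SE 0.72, 0.0234) and Flt1 by −2.20 (SE 0.56, 0.0303). Cldn5 (−1.93, adjusted p = 0.364), Cdh5 (−1.88, 0.224), Kdr (−0.72, 0.757) and Vcam1 (0.59, 0.405) were not called. The tissue dissected, the isolation and the library depth differ between the cell types, so their part in this difference cannot be told apart from that of the cell type.

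Ackr1 kept this call whichever of the 24 libraries was left out, and the others did not. The Icam1 call was lost without any 1 of 19 libraries, which were all 12 microglia libraries, astrocyte LPS control 1, LPS knockout 1, the 3 saline controls and saline knockouts 1 and 2. Its value fell to −1.81 without astrocyte LPS knockout 1 and to −2.29 without astrocyte LPS control 1. Pecam1 lost the call without 5 libraries (astrocyte LPS control 2 and LPS knockout 2, and microglia LPS control 2, LPS knockout 2 and saline knockout 1) and was −4.00 without astrocyte saline knockout 1. Flt1 lost it without 9 libraries (astrocyte LPS control 2 and saline knockouts 2 and 3, and microglia LPS controls 1 and 3, LPS knockouts 1 and 3, saline control 1 and saline knockout 1), with values from −2.52 to −1.84. Without both astrocyte LPS libraries numbered 2 the difference was called for 2 genes, Ackr1 and Icam1, with Pecam1 at −2.05 (adjusted p = 0.129) and Flt1 at −1.83 (0.101).

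The adhesion genes were then set against the identity genes, library by library, and in astrocyte preparations their balance varied more after LPS than after saline. For each library the mean log2 CPM of the tested adhesion genes (Vcam1, Icam1, Ackr1) was compared with that of the tested identity genes. The adhesion mean includes Vcam1, far the most abundant member in astrocyte preparations, and its cell of origin was not tested. The identity mean ran from −1.36 to 0.62 after saline (median −0.89) and from 0.94 to 3.02 after LPS (median 1.86), with no overlap. The adhesion mean ran from 1.45 to 2.47 (median 2.26) and from 2.89 to 5.39 (median 4.19). The difference between them had a median of 2.80 after saline and 1.88 after LPS, and its LPS range of 1.21 to 4.23 enclosed the saline range of 1.78 to 3.34. The first LPS libraries, at 4.23 in the control and 3.33 in the knockout, were the 2 highest of the LPS libraries, and the other 4 lay between 1.21 and 1.94.

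Of the 3 adhesion genes Icam1 had the widest range among LPS libraries. Relative to the identity mean it stood at 4.05 and 3.86 on the log2 scale in the first LPS control and knockout libraries. It stood at 0.68 and −0.37 in the second and 0.47 and −0.33 in those numbered 3. The summed level of 10 endothelial markers was 17.2 CPM in LPS control 1, where Icam1 was at 33.7 CPM, and 17 CPM in LPS control 3, where Icam1 was at 2.55 CPM. The libraries with the most endothelial marker RNA were LPS knockout 2 (73.3 CPM) and LPS control 2 (46.1 CPM), where Icam1 was at 6.19 and 8.04 CPM. LPS knockout 1, with the highest Icam1 of all (60.7 CPM), had 44.7 CPM of endothelial marker RNA, close to LPS control 2. Microglial markers were lowest of the LPS libraries in the first ones, at 72 and 59.2 CPM, and stood at 131 to 294 CPM in the other 4.

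**Figure D4:**
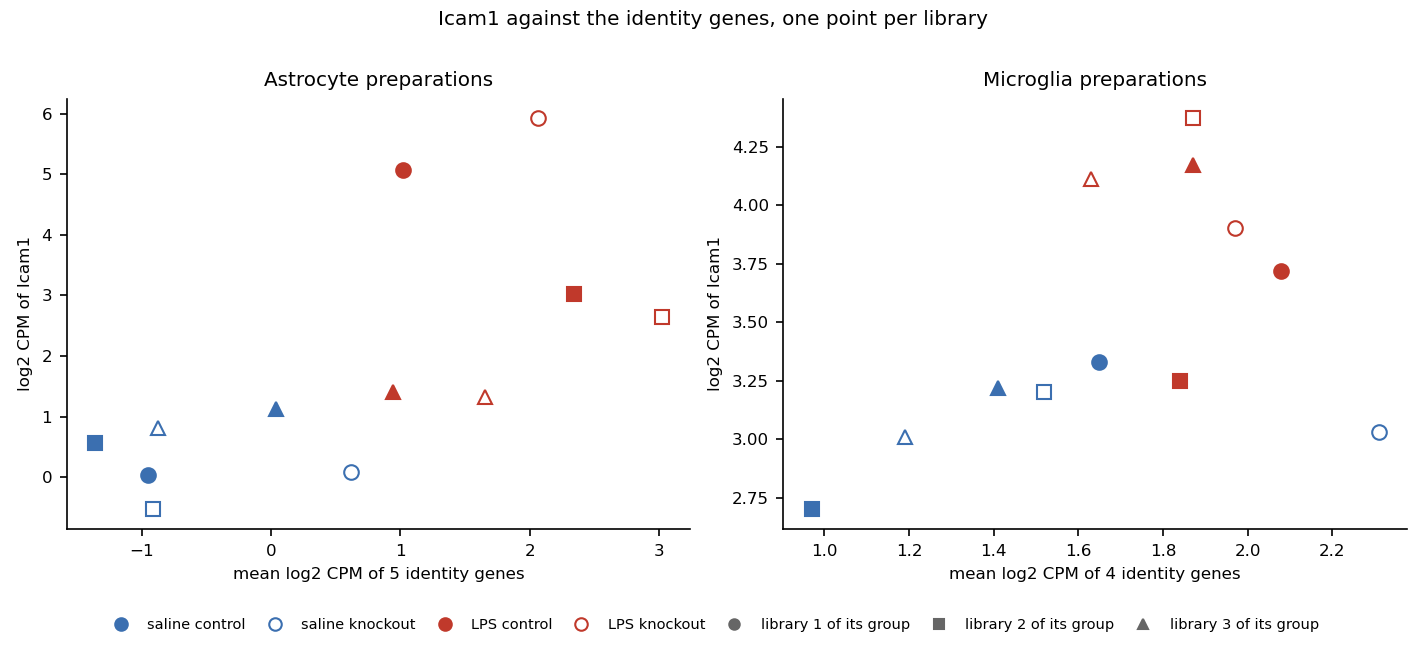
Icam1 (vertical axis, log2 CPM) against the mean log2 CPM of the tested identity genes (horizontal axis), with 1 point per library, blue for saline, red for LPS and open symbols for knockouts. In astrocyte preparations the identity means of LPS libraries begin at 0.94, above the saline maximum of 0.62, and the first LPS libraries (circles) lie above the rest. The axes of the 2 panels have different ranges.

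In microglia preparations the difference between adhesion and identity means overlapped between injections, with a median of 2.24 after saline (1.91 to 2.89) and 2.33 after LPS (1.55 to 2.50). Icam1 relative to the identity mean went from a median of 1.70 (0.72 to 1.82) to 2.11 (1.41 to 2.50), and Ackr1 from 3.67 (3.44 to 4.86) to 3.22 (2.59 to 3.37). By these medians Icam1 was higher and Ackr1 lower after LPS relative to the identity genes.

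Loss of Serpine2 was not followed by a called change in any of the 10 genes. Averaged over injections, 0 of 8 members were called in astrocyte preparations (0.0055% of all genes, which is Serpine2 alone) and 0 of 7 in microglia preparations (0.0045%, again Serpine2). DESeq2 called 0 members in either. In edgeR 540 of 18188 and 449 of 22230 genes had an unadjusted p under 0.05, and among members the number was 1 and 0. That gene was Cldn5 in astrocyte preparations, at a mean of 3.61 ± 1.52 CPM in LPS knockouts against 2.23 ± 0.54 in LPS controls and 0.593 ± 0.574 against 0.116 ± 0.078 CPM after saline (SD, n = 3 each). Its averaged difference was 1.47 (SE 0.65, 95% interval 0.10 to 2.84, unadjusted p = 0.0369, adjusted p = 1).

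Among LPS astrocyte libraries, control and knockout libraries of the same number deviated together and were of the same labelled sex, so they were also read as 3 pairs. Cdh5 was higher in the knockout of every pair, at 9.56 against 2.87, 13.4 against 6.5 and 2.29 against 0.659 CPM. Flt1 was higher too, at 13.8 against 3.63, 13.2 against 11.3 and 11 against 3.87 CPM. Cldn5 and Pecam1 were also higher in all 3 pairs, which made 4 of the 8 tested members, where 12.1% of all genes were higher in all 3 and 11.2% lower. The pairs were chosen from these same data. All 4 genes mark endothelial identity and can move together in a library, so they need not be separate results. With the pair as a block, 0 members were called in edgeR (adjusted p = 1). The smallest unadjusted p among members were those of Flt1 (log2 1.21, SE 0.48, 0.0238) and Cdh5 (1.5, SE 0.64, 0.0341).

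The intervals for the other genes were wide in astrocyte preparations. Icam1 differed by 0.08 between knockouts and controls (95% interval −1.88 to 2.05), Pecam1 by −0.12 (−1.38 to 1.15), Cdh5 by 1.04 (−0.21 to 2.29) and Flt1 by 0.49 (−0.36 to 1.34). Ackr1 differed by 0.23 (−0.96 to 1.42), Kdr by 0.67 (−0.71 to 2.06) and Vcam1 by 0.16 (−0.22 to 0.54). In microglia preparations Icam1 differed by 0.18 (−0.24 to 0.59), Vcam1 by 0.49 (−0.08 to 1.07) and Pecam1 by 0.13 (−0.47 to 0.72). None of these was called, and changes inside the intervals would not have been seen. Taken one injection at a time, 0 members were called in astrocytes after saline (0.0055% of genes, with 1 member at an unadjusted p under 0.05) or LPS (0.0055%, 0 members), and 0 in microglia after saline or LPS (0.0% of genes, 0 members in each). Over all genes, 500 and 497 of 18188 in astrocytes and 351 and 335 of 22230 in microglia had an unadjusted p under 0.05. Whether the LPS response itself depended on genotype was tested too, and the difference was called for 0 members in either cell type, where 0.0% of genes were called and 0 members had an unadjusted p under 0.05. The number of all genes with an unadjusted p under 0.05 was 474 in astrocytes and 251 in microglia for this difference. DESeq2 called 0 members in each of these comparisons.

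Other genes of the endothelium were read from lists of known function, also chosen with earlier results known. In each list, a gene low after saline could enter the test through its LPS libraries alone and could then hardly fall. The counts and medians of the lists therefore describe the genes tested and not all those listed. Among 26 tested genes of endothelial cells and the blood-brain barrier, 12 rose and 1 fell after LPS in astrocyte preparations (median log2 1.87), where 4.98% of all genes were called higher and 1.92% lower. Ly6c1 and Ly6a, surface proteins of brain endothelium that are also carried by leukocytes, went from 0.109 ± 0.0884 to 7.22 ± 7.83 CPM (SD, n = 6) and from 0.195 ± 0.236 to 12.5 ± 10.5 CPM, with log2 fold changes of 5.70 and 5.85 (8.0 for Ly6a without saline knockout 2). The limit of 3 counts in an astrocyte library was 0.11 to 0.247 CPM. The saline mean of Ly6c1 lay under it and that of Ly6a within it, so the size of both rises is poorly known. Cd93, a lectin-like receptor of endothelium and myeloid cells, rose by 3.48 (adjusted p = 0.000896), and Ramp2, a partner of the adrenomedullin receptor, by 1.68 (0.00164). The organic anion transporter Slco1c1, which astrocytes make as well, fell by 1.12 from 226 ± 46.8 to 105 ± 68.6 CPM (adjusted p = 0.0191), a call lost without LPS control 2 or saline knockout 2 or 3. Bsg was not called (−0.23, adjusted p = 0.61). In microglia preparations 5 of 24 rose and 0 fell (median 0.05, with 2.19% of all genes called higher and 0.513% lower), among them Ly6a (1.87, adjusted p = 0.000254), Cd93 (1.65, 0.00112), Pltp (1.31, 0.0244) and Cd34 (0.63, 0.0238), of which Cd34 lost the call without LPS control 3, LPS knockout 2 or saline knockout 3 and with sex as a covariate. Bsg (0.07) and Spock2 (0.04) were not called there.

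On the ligand side of the VEGF receptors, Vegfa fell in astrocyte preparations while Flt1 rose. Vegfa went from 199 ± 24.4 to 72.6 ± 22 CPM (n = 6 each, log2 −1.46, SE 0.20, adjusted p = 0.000299). Flt4, the receptor of lymphatic growth factors, rose from 0.0573 ± 0.0947 to 1.58 ± 1.2 CPM (4.69, adjusted p = 0.00537), with values of 3.96 without LPS knockout 2 and 6.59 without saline knockout 2. The co-receptor Nrp1 (−0.29) and the ligand Vegfb (−0.23) were not called, and the list of 8 counted 1 higher and 1 lower (median 0.15). In microglia preparations 0 of 7 were called by edgeR, with 1 at an unadjusted p under 0.05, and 0 by DESeq2, with Nrp1 at 61.4 ± 7.83 CPM after saline and 71.7 ± 3.82 CPM after LPS (log2 0.22), and a log2 difference of 0.09 for Nrp2. Of all 22230 genes there, 2848 had an unadjusted p under 0.05.

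Among the leukocyte partners of the adhesion molecules, in microglia preparations 5 of 11 rose and 1 fell (median 0.66), where 2.19% of all genes were called higher and 0.513% lower. Itgal, the alpha chain of the ICAM-1 receptor LFA-1, rose from 9.31 ± 3.2 to 66.5 ± 21.8 CPM (log2 2.84, SE 0.19, adjusted p = 1.08e-06), and its beta chain Itgb2 from 63.8 ± 18.7 to 127 ± 20.8 CPM (0.99, 0.00753). Spn rose by 2.67, Cd44 by 1.23 and Itgam, of another ICAM-1 receptor, Mac-1, by 1.01 (0.0417). Selplg, the ligand of P-selectin, fell by 1.23 (adjusted p = 0.0372). In astrocyte preparations 2 of 7 rose (median 0.20, with 4.98% of all genes called higher), Itgb2 by 2.51 (0.00685) and Itgam by 1.72 (0.0332), while Cd44 (2.29, adjusted p = 0.109) and Itgb1 (0.20) were not called. The responses of 0 of the 11 were called different between the cell types by edgeR, with 3 at an unadjusted p under 0.05, and 0 by DESeq2. Of all 24607 genes in that comparison, 3583 had an unadjusted p under 0.05. The microglia call of Itgam was lost without LPS control 1 or 3, LPS knockout 2, saline control 3 or saline knockout 2 or 3, and that of Selplg without any 1 of the LPS controls, LPS knockout 3, saline control 1 or saline knockout 1, and both with sex as a covariate. The astrocyte call of Itgam was lost without LPS control 2, LPS knockout 2 (1.10) or any 1 of the 6 saline libraries.

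Among 19 other tested genes listed for activated endothelium, 9 rose and 0 fell in astrocyte preparations (median 1.90). Of all genes there, 4.98% were called higher and 1.92% lower. Lrg1, a secreted glycoprotein of venules, went from 0.0246 ± 0.042 to 4.19 ± 3.4 CPM (log2 7.75, adjusted p = 0.00133). Its saline mean lay under the limit of 3 counts in an astrocyte library (0.11 to 0.247 CPM), so the size of this rise is poorly known. Vwf, the platelet-binding factor of endothelium, rose by 2.58 (0.0107), the plasminogen activator Plat by 1.90 (0.0102), the NF-kB inhibitor Nfkbia by 1.61 (0.0139) and Cxcl10 by 6.37 (0.0337), and Socs3 was not called (0.19). Vwf lost the call without LPS knockout 2 (1.99). Cxcl10 lost it without LPS control 1 (5.70), LPS control 2 or any 1 of the 6 saline libraries, and was 4.07 without LPS knockout 1. In microglia preparations 7 of 16 rose and 0 fell (median 0.68), where 2.19% of all genes were called higher and 0.513% lower. Cxcl10 rose by 4.24, Ch25h by 3.93, Socs3 by 2.46 and Ccl2 by 2.17, and Plat (−0.17) and Angpt2 (−0.06) were not called. Ch25h had a saline mean of 0.097 CPM, under the limit of 3 counts in a microglia library (0.207 to 0.634 CPM). Many of these genes are also made by glia and leukocytes. Without both LPS libraries numbered 2, the astrocyte calls of Slco1c1, Flt4, Itgb2, Itgam, Vwf and Cxcl10 were lost, with adjusted p between 0.058 and 0.113.

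Marker lists of other cell types were summed in each library to show what else moved with the endothelial genes. In astrocyte preparations the 10 endothelial markers, which include the 5 identity genes, summed to 4.13 to 11.1 CPM after saline and 17 to 73.3 CPM after LPS, and 7 of 9 tested rose. For this and the next lists, 4.98% of all genes were called higher and 1.92% lower. Markers low after saline could again enter the test through their LPS libraries alone. Pericyte markers summed to 90.1 to 124 and 94.4 to 147 CPM, with 4 of 7 tested called higher, and neuronal markers to 58.6 to 83.6 and 90.8 to 181 CPM, with 4 of 8 called higher. Neutrophil markers went from 0.182 to 2.16 CPM to 1.95 to 24.6 CPM, while microglial markers were at 72.5 to 118 and 59.2 to 294 CPM. Monocyte markers went from 0.432 to 0.86 CPM to 0.809 to 10.0 CPM, vascular fibroblast markers from 6.74 to 16.2 to 12.3 to 34.8 CPM and erythrocyte markers from 1.9 to 6.78 to 0.478 to 2.39 CPM. Platelet markers summed to 0.86 to 8.01 and 0.824 to 2.87 CPM, with Gp1bb at 0 after saline and Gp9 and Ppbp at 0 after LPS. Lymphocyte markers summed to 0 to 1.99 CPM after saline and 0.102 to 1.39 CPM after LPS. Among them Cd3e, Cd3g and Nkg7 were at 0 in all 12 libraries, Gzma in all saline libraries and Ms4a1 in all LPS libraries. Astrocyte markers summed to 14900 to 18800 CPM after saline and 13900 to 21300 CPM after LPS. The part of these other cells in the rise of the 10 genes was not tested.

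**Figure D5:**
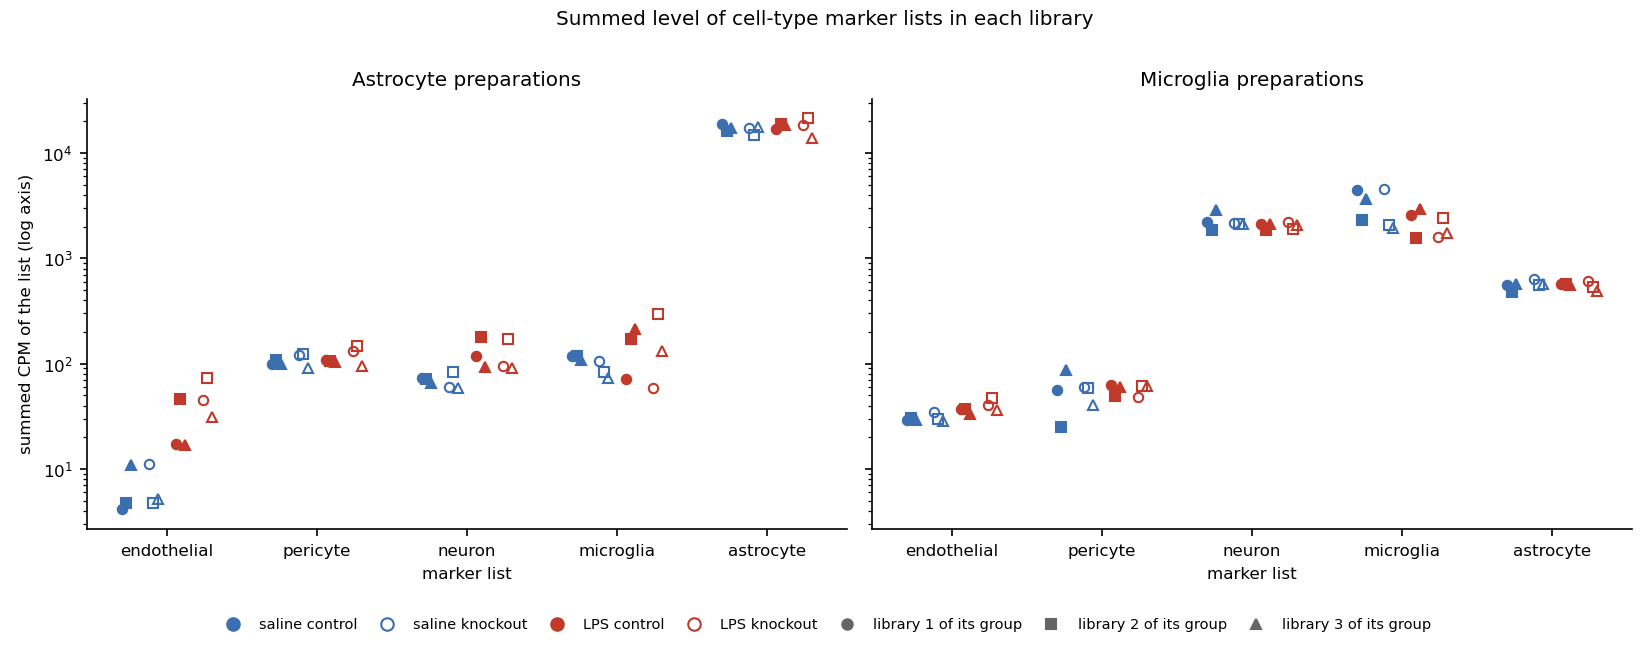
Summed CPM of 5 marker lists in each library (log axis), blue for saline, red for LPS, open symbols for knockouts and symbols for the library number. In astrocyte preparations the endothelial sum begins at 17 CPM after LPS, above the saline maximum of 11.1 CPM, while the astrocyte and pericyte sums overlap between injections. In microglia preparations neuronal markers sum to 1870 to 2860 CPM.

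In microglia preparations the endothelial markers summed to 28.4 to 34.8 CPM after saline and 33.3 to 46.9 CPM after LPS, and 0 of 7 tested were called by edgeR, with 1 at an unadjusted p under 0.05, against 1 by DESeq2. Of all 22230 genes, 2848 had an unadjusted p under 0.05 in edgeR. Microglial markers summed to 1940 to 4550 and 1570 to 2910 CPM, neuronal markers to 1870 to 2860 and 1870 to 2210 CPM, neutrophil markers to 463 to 1820 and 312 to 948 CPM and platelet markers to 11.2 to 28.2 and 8.49 to 13.8 CPM. Lymphocyte markers summed to 4.65 to 11.1 CPM after saline and 11.2 to 37.1 CPM after LPS and erythrocyte markers to 44.8 to 155 and 30 to 41.3 CPM, neither with overlap, and 2 of 4 tested lymphocyte markers were called higher and 3 of 4 erythrocyte markers lower. Their part in the rises of Icam1, Itgal and Spn in microglia preparations was not tested. Of the 8 microglial markers 1 was called higher and 3 lower. Among all genes tested in microglia preparations, 2.19% were called higher and 0.513% lower. Single genes had LPS ranges entirely above saline in 1.92% of cases and entirely below in 0.477%. No microglial marker in the microglia libraries and no astrocyte marker in the astrocyte libraries was at 0 throughout.

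Genes with the most similar pattern were found by Pearson's r of log2 CPM over the 12 libraries of a cell type, as a description over libraries that share depth and treatment. In astrocytes Icam1 was most like Gbp7 (r = 0.979), Trim12a (0.977), Plat (0.971), Slc39a14 (0.97) and Gbp5 (0.969). Cldn5 was most like Xdh (0.941), Adgre1 (0.928), Fam111a (0.921), Slfn5 (0.921) and Phyhd1 (0.92), and none of the other 9 members was among them. Vcam1 was most like Maip1 (0.937), Taf1d (0.9), Ccnl1 (0.874), Wdr3 (0.872) and Prdm2 (0.859). In microglia Icam1 was most like Rack1 (0.955), Soat1 (0.951), Tuba1b (0.95), Rps2 (0.944) and Ncf4 (0.938). Vcam1 there was most like Slc31a1 (0.926), Vdac2 (0.91), Rps3a2 (0.909), Sri (0.888) and Ankrd46 (0.884). The lists for the same gene shared no name between the 2 cell types.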

How the data were processed

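The deposited files hold counts of reads per Ensembl gene, 1 table per library. Per the submitters' processing notes the authors used STAR 2.6.0c and HTSeq, with GRCm38 and GRCm39 named as builds. Strand and overlap settings were not given in the sources used here. IDs were matched to symbols with GENCODE M21. Rows that name no gene were left out of library sizes (70.6% to 79.3% of listed reads in microglia, 40.0% to 45.7% in astrocytes). EdgeR 4.0.16 in R 4.3.3 (filterByExpr, minimum count 10 and total 15, TMM, robust quasi-likelihood fit, 1 mean per group) was fitted to the 12 libraries of a cell type, and to all 24 for the difference between cell types, with Benjamini-Hochberg adjustment over all genes. Averaged comparisons weight both genotypes or injections equally. On simulated data the averaged LPS fit recovered 32% of 2-fold and 87% of 8-fold changes over 17590 genes in astrocytes, and 67% and 100% over 21903 genes in microglia. Log2 CPM used a prior count of 2. Likeness was read over genes averaging at least 1 CPM.

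The members and lists were chosen with earlier results of these data known. All 10 members were reported, with up to 4 called genes of smallest p and 2 of highest mean CPM from each other list, and the 5 genes most like Cldn5, Vcam1 and Icam1. Alternatives were RLE factors, DESeq2 1.42.0, no filter, a minimum count of 50, sex added to the model, a block for replicate number, only the groups compared, and libraries left out, with the LPS astrocyte libraries numbered 2 chosen after seeing the data. Same-numbered LPS astrocyte controls and knockouts were taken as pairs, since their deviations from the group means correlated at 0.157, 0.297 and 0.354; the labels name no pairing.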

Additional observations from a re-analysis of the deposited data

Results flagged for a closer look

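The response to LPS differed between microglia and astrocyte preparations for 4 of the 8 genes tested, by a test of the difference itself in 1 edgeR fit of 24 libraries. The log2 response in microglia minus that in astrocytes was −4.42 for Ackr1, −3.03 for Icam1, −2.97 for Pecam1 and −2.20 for Flt1. Ackr1 alone kept the call whichever library was left out, and Icam1 lost it without any 1 of 19 of the 24. With sex from the labels 1 call was left, and with a replicate block Icam1 was at −2.14 (adjusted p = 0.132). The Icam1 value rests most on the first LPS libraries of the astrocyte preparations, at 33.7 and 60.7 CPM. The Ackr1 value stands beside a rise of the overlapping gene Cadm3 in astrocyte preparations (log2 2.06) that was not called in microglia preparations (−0.26). Ackr1 had only 1 to 11 counts per astrocyte library after saline.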

How the results depend on the processing

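The numbers of the 10 genes called after LPS depended on the settings within a single genotype. In astrocyte controls (1 called) they were 4 with DESeq2, 6 without the filter, 3 with sex from labels or from transcripts, 2 with only the groups compared 4 without the LPS libraries numbered 3 and 0 without those numbered 2. In astrocyte knockouts (2 called) they were 6, 6, 4, 1, 5 and 0 in the same order. For the averaged astrocyte comparison (6 called) they were 3 without the LPS libraries numbered 2. In microglia they were 2 with DESeq2, 2 without the filter and 0 with either sex term for the averaged comparison, 1 without the filter in controls, and 1 with DESeq2 and 1 without the filter in knockouts. The difference between cell types (4 called) had 1 with sex from the labels and 2 without the astrocyte LPS libraries numbered 2. With single libraries left out, the counts ranged from 5 to 6 for the averaged astrocyte comparison, 0 to 3 in astrocyte controls, 0 to 4 in astrocyte knockouts, 0 to 2 for averaged microglia and 1 to 4 for the difference, and were 0 for each knockout and genotype comparison. Over all settings, the number of all genes called moved as well. It ranged from 36 to 804 in astrocyte controls (169 in the main fit) and from 38 to 1027 in astrocyte knockouts (283). For the averaged astrocyte comparison it ranged from 635 to 2232 (1255). In microglia it ranged from 371 to 1191 averaged (600), 89 to 463 in controls (128) and 112 to 637 in knockouts (254). For the difference between cell types it ranged from 434 to 1591 (640). The cause of these changes was not tested.

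Values that turned their sign were all uncalled. They were Pecam1 in microglia controls after LPS with sex from the labels (−0.05), Ackr1 in microglia knockouts against controls with sex from transcripts (−0.03), Icam1 in astrocyte knockouts against controls with a replicate block (−0.16) and, without the LPS libraries numbered 2, Kdr in astrocyte knockouts after LPS (−0.01) and Pecam1 in astrocyte knockouts against controls (0.06). Leaving out single libraries gave sign changes for the following LPS responses. In microglia controls Pecam1 ranged from −0.18 to 0.24 and Flt1 from −0.14 to 0.72. In microglia knockouts Pecam1 ranged from −0.06 to 0.61 and Kdr from −0.23 to 0.56. In averaged microglia Flt1 ranged from −0.36 to 0.07, Bsg from −0.07 to 0.22, Spock2 from −0.06 to 0.27 and Angpt2 from −0.15 to 0.05. In astrocytes Socs3 ranged from −0.09 to 0.39 and, in knockouts, Kdr from −0.01 to 1.32. For knockouts against controls Pecam1 ranged from −0.03 to 0.31, Flt1 from −0.29 to 0.14, Kdr from −0.13 to 0.34 and Ackr1 from −0.09 to 0.17 in microglia, and in astrocytes Pecam1 ranged from −1.16 to 0.44, Icam1 from −1.13 to 0.83 and Ackr1 from −0.15 to 0.60.

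Outside the LPS astrocyte controls and knockouts, libraries of the same number were not shown to be pairs: their deviations correlated at −0.0998 to 0.00709 between saline astrocyte controls and knockouts and at −0.049 to 0.0912 between saline and LPS astrocytes, and at −0.167 to 0.442 and −0.087 to 0.528 in microglia. The block changed no call of a member between knockouts and controls. With a replicate block 5 genes were called for averaged astrocytes, 1 in controls, 2 in knockouts, 1 for averaged microglia and 3 for the difference, and Icam1 had 3.03 in averaged astrocytes (adjusted p = 0.06) and −2.14 for the difference (0.132). Low counts limit Cldn5, Sele and Selp, and a 2-fold change in astrocytes was often missed on simulated data. After saline, astrocyte libraries also held few counts of Ackr1 (1 to 11), Pecam1 (1 to 24), Cdh5 (3 to 25) and Kdr (1 to 28).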
